A study of Mus musculus with 4 samples.

Results

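The S100 genes and the annexin genes, the families that encode the small EF-hand calcium sensors and the calcium-dependent membrane-binding proteins of vertebrate cells, were followed in 4 mouse lung tumours. Genes were taken by symbol, as S100 followed by letters and an optional number, or Anxa followed by a number, which gave 29 of the 39017 genes in the count table. The S100 pattern gave 17 of them and the annexin pattern 12. S100pbp, which fits the S100 pattern, encodes a protein named for its binding to S100P and is not itself an EF-hand S100 gene. It was kept because the choice was made by symbol alone.

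All 4 tumours formed a single group, Control, and no treated or knockout group was compared. Each came from a male C57BL/6 mouse of the KP model, in which Cre recombinase starts lung tumours and removes floxed p53 (Fl/Fl), and the whole group shared this genotype. Tumours were started by 1500 viral units of lenti.PGK-Cre given through the trachea and were macrodissected 22 weeks and 5 days later. The PGK promoter is active in most cell types, so the virus did not restrict Cre to 1 kind of lung cell. A further genotype label reads heterozygous fl/wt and names no gene, while column names in the log2 table carry WT for the same tumours. In the study's methods, controls had either no floxed Slc2a1 allele or a single one, and which holds here is not settled. The labels do not say whether the 4 tumours came from separate mice, so tests of spread measure differences between these tumour samples only.

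Whole tumours were turned into cell suspensions, and polyadenylated RNA from 500 ng of total RNA was sequenced as stranded libraries. Total counts per tumour lay between 8151613 and 8799007. Counts were scaled to CPM (counts in each 1000000 of the effective library size), and 3 counts, the limit that a count of 0 allows, corresponded to 0.330 to 0.370 CPM. Counts of the floxed Trp53 gene gave at most 118 counts and at least 9.75 CPM in each tumour, but they cover the whole gene and so do not check the deletion. Summed CPM of 10 alveolar type 2 markers, the defining genes of the surfactant cell, was 33911, 58114, 55042 and 62401. In bulk tumours, fewer cells of a type and less RNA per cell cannot be told apart, and this holds for every level below.

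S100 proteins are small dimers that bind calcium through EF-hand loops and then grip target proteins inside the cell, and some are released and bind receptors such as Ager or Tlr4. Annexins share a repeated core that attaches to acidic phospholipids when calcium rises, and they serve membrane repair, vesicle traffic and the control of inflammation. The families meet in complexes, of which the pair of S100a10 with Anxa2 is the best known, and most S100 genes sit side by side in a cluster that lies on chromosome 3 in the mouse.

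That cluster is where the results begin, so the sequence before a few of its starts is shown. Promoter windows from RefSeq (GRCm38.p6) were found for 23 of the 29 members, and none was given for S100a14, S100a10, S100a2, Anxa3, Anxa6 and Anxa13. Each of the following holds the 250 bases before the RefSeq start, of which the last 12 of S100a6 and the last 8 of S100a11 lie in exons of the GENCODE annotation used for positions below, written 5′ to 3′ on the strand of the gene, and capitals mark matches to the motif letters spelled out below. S100a6 and S100a16 are shown because they were highest in tumour 1, S100a11 because its CPM was among the highest, S100a9 as a calprotectin gene and S100a4 because it was highest in tumour 3. The last run is the whole interval of 42 bases that separates the annotated starts of S100a1 and S100a13, which point away from each other.
S100a6, chr3:90612644-90612893, plus strand: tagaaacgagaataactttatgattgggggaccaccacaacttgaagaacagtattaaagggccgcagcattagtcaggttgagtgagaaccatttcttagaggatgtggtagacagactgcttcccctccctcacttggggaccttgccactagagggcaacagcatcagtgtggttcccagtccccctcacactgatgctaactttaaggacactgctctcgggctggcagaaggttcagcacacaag
S100a16, chr3:90537004-90537253, plus strand: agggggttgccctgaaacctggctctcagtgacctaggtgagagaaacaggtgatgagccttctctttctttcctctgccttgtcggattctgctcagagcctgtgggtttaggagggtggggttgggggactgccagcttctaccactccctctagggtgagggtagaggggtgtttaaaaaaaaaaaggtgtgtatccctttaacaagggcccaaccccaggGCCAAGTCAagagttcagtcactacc
S100a11, chr3:93520246-93520495, plus strand: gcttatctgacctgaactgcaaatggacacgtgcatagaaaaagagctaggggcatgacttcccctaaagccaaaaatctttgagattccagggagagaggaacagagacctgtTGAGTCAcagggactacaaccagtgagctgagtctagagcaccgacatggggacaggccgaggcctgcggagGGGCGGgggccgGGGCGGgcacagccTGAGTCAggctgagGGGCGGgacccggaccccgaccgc
S100a9, chr3:90695722-90695971, minus strand: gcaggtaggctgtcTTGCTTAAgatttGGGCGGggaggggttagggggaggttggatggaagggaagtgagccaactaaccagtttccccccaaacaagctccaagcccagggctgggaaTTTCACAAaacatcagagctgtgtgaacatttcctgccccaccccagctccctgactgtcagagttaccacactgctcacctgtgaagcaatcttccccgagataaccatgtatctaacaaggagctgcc
S100a4, chr3:90603520-90603769, plus strand: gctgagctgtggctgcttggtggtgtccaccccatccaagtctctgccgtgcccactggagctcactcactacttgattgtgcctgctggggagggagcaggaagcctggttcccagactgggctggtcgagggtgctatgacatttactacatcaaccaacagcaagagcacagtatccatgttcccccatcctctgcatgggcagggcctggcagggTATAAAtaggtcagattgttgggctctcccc
Between S100a1 and S100a13, chr3:90514393-90514434, plus strand: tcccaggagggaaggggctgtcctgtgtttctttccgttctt

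Both strands were searched. AP-1, a factor of growth and stress signals, was searched as TGANTCA. C/EBP factors, which act in myeloid and lung epithelial cells, were searched as TTNNGNAA. The GC box of housekeeping promoters was searched as GGGCGG. The TATA box, which positions the start of transcription, was searched as TATAAA. The antioxidant response element was searched as TGACNNNGC, whose opening letters can also lie inside the AP-1 letters, so that the same bases may match both. The S100a6 window held none of these letters. The S100a16 window held 1 match to the antioxidant response element, on the opposite strand. In the S100a11 window there were 2 AP-1 matches and 3 GC boxes. The S100a9 window held 2 C/EBP matches and 1 GC box, and the S100a4 window held 1 TATA box. Over all 31 windows of the 23 members, AP-1 letters were found in 4 (12.9%), against 6.75% of 32851 windows of all genes. The C/EBP letters were found in 8 (25.8% against 36.8%), the GC box in 10 (32.3% against 32.7%), the TATA box in 6 (19.4% against 12.4%) and the antioxidant response element in 5 (16.1% against 10.2%). These are matches of letters and not measured binding sites.

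Of the 29 members, 23 had a mean of at least 1 CPM over the 4 tumours (12 S100 members and 11 annexins), and 19 reached 10 CPM. The annexin with the highest CPM, which is not scaled to length, was Anxa2 at 976 ± 170 CPM (SD, n = 4), and the S100 gene with the highest CPM was S100a6 at 629 ± 342 CPM (SD, n = 4). Of all counts, S100 members together took 0.323% (95% Wilson interval 0.319 to 0.327%) for tumour 1 and 0.141% (0.139 to 0.144%) for tumour 2. Their share was 0.150% (0.148 to 0.153%) for tumour 3 and 0.206% (0.203 to 0.209%) for tumour 4. Tumour 1 thus held the largest S100 share, above the interval of each other tumour. Annexins took 0.425% (0.421 to 0.430%), 0.383% (0.379 to 0.387%), 0.394% (0.390 to 0.399%) and 0.385% (0.381 to 0.389%), a narrower range with tumour 1 again highest. The mean share was 0.205% ± 0.0835 (SD, n = 4) for S100 members and 0.397% ± 0.0196 (SD, n = 4) for annexins. Shares are not scaled to length, so they do not order the families by transcript level. Per kilobase of the longest transcript, the summed CPM of S100 members was 4189, 2024, 2250 and 2885 in tumours 1 to 4. That of annexins was 2406, 2246, 2280 and 2211. By this measure S100 members were above annexins in tumours 1 and 4 and below them in tumours 2 and 3. The intervals of the shares cover counting error only, since reads carried no molecular identifiers.

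**Figure D1:**
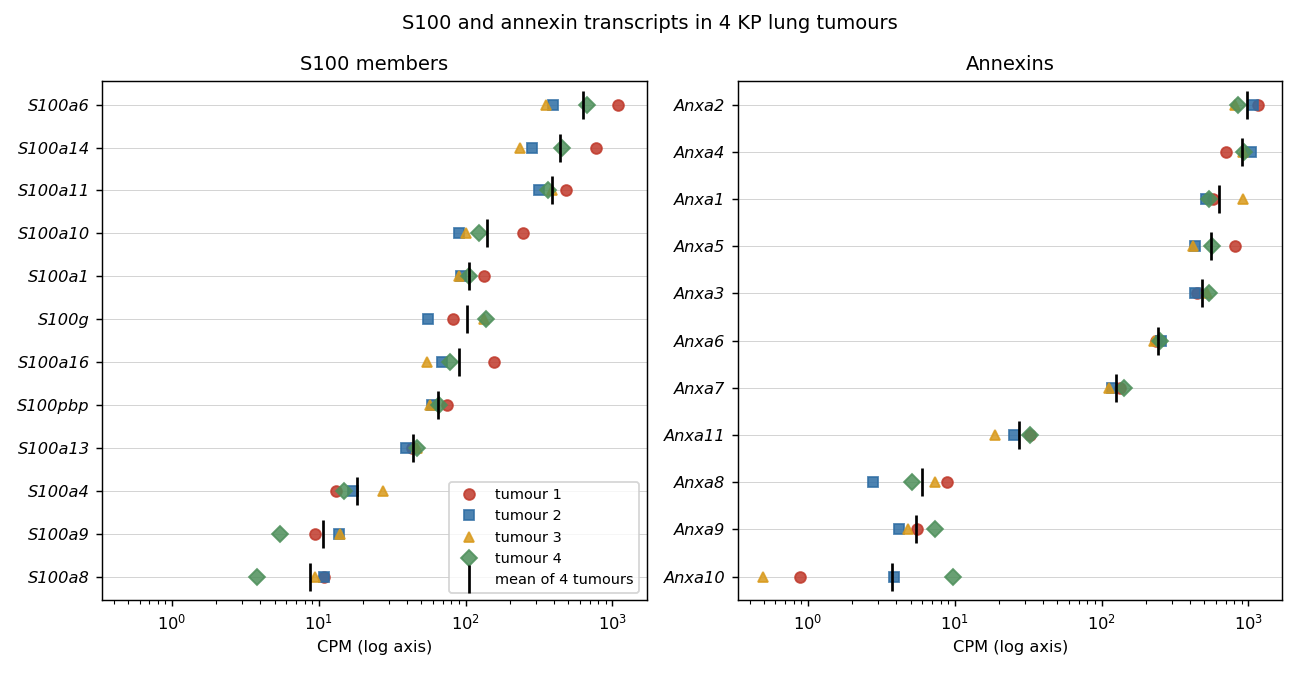
CPM (log axis) of the 12 S100 members and 11 annexins with a mean of at least 1 CPM, with a point for each of the 4 tumours and a black bar at their mean. For S100a6, S100a14, S100a10 and S100a16 the point of tumour 1 is the rightmost. Points of Anxa6 nearly coincide between 229 and 256 CPM.

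Spread between tumours was set against counting noise for each gene with a chi-square statistic (Poisson expectation, Benjamini-Hochberg adjustment over 14225 genes). The test was passed by 22 of the 23 members, 11 of 12 S100 members and 11 of 11 annexins, and by 76.7% of all genes tested. Among genes with a mean of at least 10 CPM it was passed by 18 of 19 members and by 85.3% of all genes, so passing is common at this depth and sets no member apart. The member that missed it was S100a13 (adjusted p = 0.0959).

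On the median, S100 members spread more than annexins. The median SD of log2 CPM was 0.63 over the 12 S100 members and 0.35 over the 11 annexins, beside 0.29 over all genes tested. Above 10 CPM the medians were 0.63, 0.24 and 0.25. The highest tumour exceeded the lowest by more than 2-fold for 8 of 12 S100 members and 2 of 11 annexins, beside 28.1% of all genes. The 8 were S100a6, S100a14, S100a10, S100a16, S100g, S100a4, S100a8 and S100a9, and the 2 annexins were Anxa8 and Anxa10. Tumour 1 carried much of this. Without it, 3 of 12 S100 members and 2 of 11 annexins exceeded 2-fold, beside 17.6% of all genes, and the S100 median SD was 0.37 beside 0.25 over all genes.

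**Figure D2:**
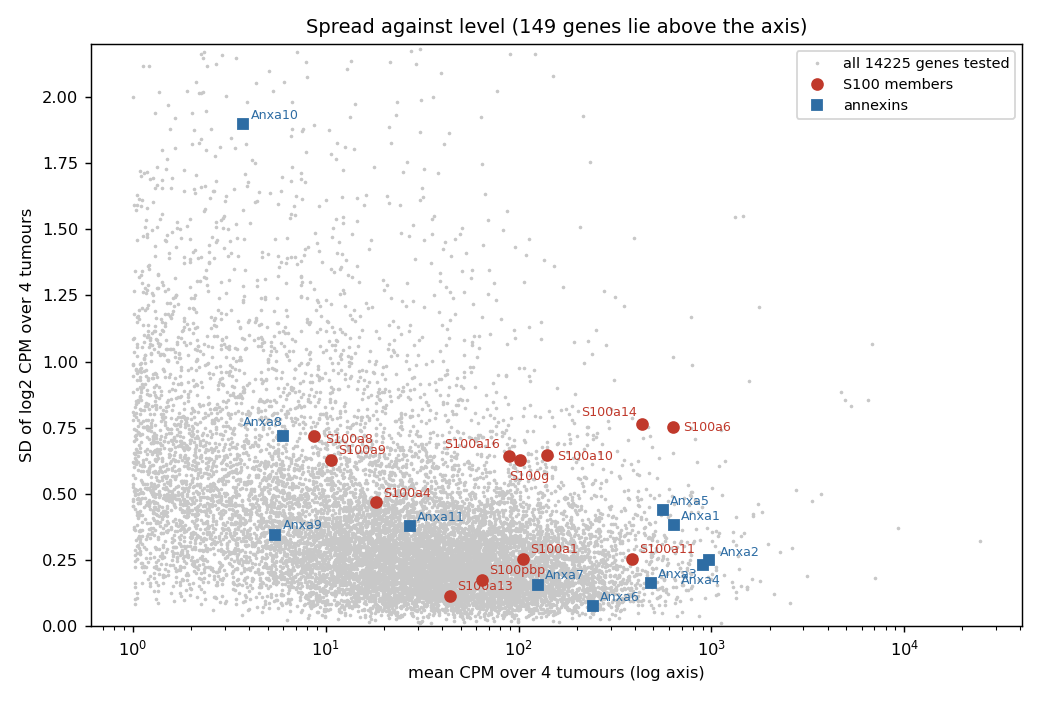
SD of log2 CPM over the 4 tumours against mean CPM (log axis) for the 14225 genes tested (grey), with S100 members (red circles) and annexins (blue squares) named. S100a6 and S100a14 lie at SD 0.75 and 0.77, above most genes of like level, and Anxa6 lies near the bottom at 0.07. A further 149 genes lie above the axis limit of 2.2.

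Tumour 1 was the highest tumour for 8 of 12 S100 members and 3 of 11 annexins, beside 31.4% of all genes. For S100a8, counted among the 8, tumours 1 and 2 differed by little (10.9 and 10.8 CPM). Tumour 3 was highest for 3 members, S100a4, S100a9 and Anxa1, beside 30.2% of all genes. Tumour 4 was highest for 7 members, of which 5 were annexins, beside 18.0% of all genes, and tumour 2 for 2 annexins, beside 20.4%. Tumour 1 was lowest for 2 of 23 members, S100a4 and Anxa4, beside 30.4% of all genes. Tumour 3 was lowest for 11 members, beside 32.5% of all genes, and tumour 2 for 8, beside 19.4%.

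S100a6, S100a14, S100a16 and S100a10 were each highest in tumour 1 with a range over 2-fold. S100a6, which encodes calcyclin and lies on chromosome 3 at 90612882 to 90624181 (GRCm38, plus strand, 3 exons in its longest transcript), had 1098, 395, 355 and 670 CPM in tumours 1 to 4. Tumour 1 was 3.09 times tumour 3, and tumour 4 stood between tumour 1 and the other 2. S100a14 (90526856 to 90528837, plus strand), an S100 protein found mainly in epithelia, had 774, 285, 236 and 454 CPM. Its order of tumours was that of S100a6, with a range of 3.28-fold and a mean of 437 ± 243 CPM (SD, n = 4). S100a16 (90537254 to 90543151, plus strand), which is broadly expressed, had 155, 69.2, 54.9 and 78.9 CPM, again with tumour 1 highest and tumour 3 lowest (2.83-fold). S100a10, the partner of Anxa2, lies 3044 kb from the start of S100a1, at 93555080 to 93564643 and had 246, 90.5, 101 and 123 CPM, highest in tumour 1 and lowest in tumour 2 (2.72-fold).

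Keratins of simple epithelium were also highest in tumour 1. The summed CPM of 6 epithelial markers was 5188, 3078, 3114 and 3282, with 5 of the 6 highest in tumour 1. Krt8 had 1261, 589, 676 and 632 CPM and Krt19 had 457, 154, 172 and 187 CPM, both lowest in tumour 2 and not, as S100a6, in tumour 3. Krt18 and Krt7 were also lowest in tumour 2. Epcam, of the same list, had 600, 470, 218 and 371 CPM, highest in tumour 1 and lowest in tumour 3, as S100a6 was. The sixth, Cdh1, which encodes E-cadherin, stayed between 842 and 887 CPM. Alveolar type 2 markers went the other way, lowest in tumour 1 for 8 of 10 genes. Squamous markers were low in all tumours but highest in tumour 1 (summed CPM 34.3, against 5.43 to 13.3), mostly through Krt14, with 191 counts there and at most 7 elsewhere, and Krt6a at 7.70 CPM. Sprr1a was instead highest in tumour 4 (10.3 against 5.17 CPM in tumour 1), Trp63 had 0 counts in tumour 1 and 9 in tumour 4, and Dsg3 was at 0 in every tumour. The part that any of these plays in the S100 levels was not tested.

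Neighbours on the chromosome did not all have tumour 1 highest or a range over 2-fold. S100a1 (90511034 to 90514392, minus strand), known for calcium handling in heart and muscle, had 133, 92.7, 90.8 and 106 CPM. Its order of tumours was that of S100a6, at a smaller range of 1.47-fold. S100a13 (90514435 to 90524581, plus strand), which takes part in the release of FGF1, starts 42 bases away on the other strand and had 43.2, 39.5, 46.5 and 46.9 CPM. This is the member that missed the noise test. Heart and skeletal muscle markers summed to between 3.41 and 5.11 CPM, with Myl1 at 0. S100a11 (93520488 to 93526287, plus strand), a binding partner of Anxa1, had 483, 315, 385 and 367 CPM, with tumour 1 highest by 1.53-fold over tumour 2.

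The count of S100a11 is uncertain because of near-identical copies. The processed pseudogene Gm12854 matches it over 80 nt or more with 97% or higher identity and was counted at 219, 147, 169 and 147 CPM, and Gm7665 likewise at 5.43 ± 1.41 CPM (SD, n = 4). Added together, the 3 genes had 709, 466, 559 and 519 CPM, which left tumour 1 highest and tumour 2 lowest. Exon bases of S100a4 (302) and S100a3 (144) are also shared with the read-through gene Gm42674 on the same strand, which had no row in the count table.

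**Figure D3:**
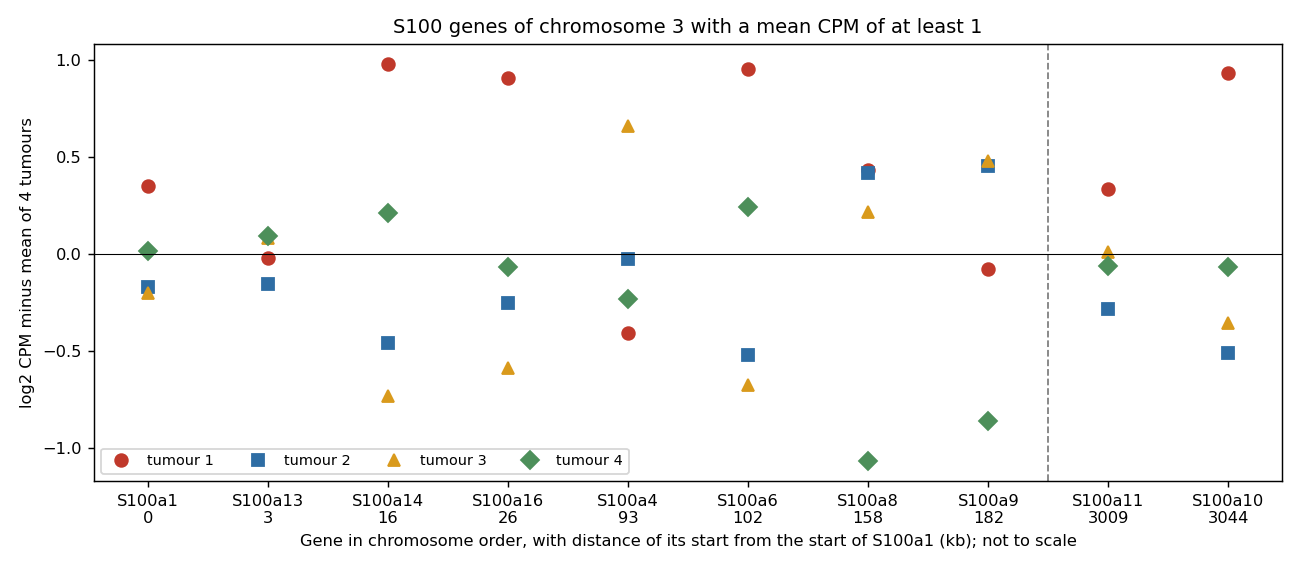
Log2 CPM of each tumour minus the mean of the 4 tumours for the 10 S100 genes of chromosome 3 with a mean of at least 1 CPM, in chromosome order with the distance in kb from the start of S100a1. The dashed line marks the gap before S100a11, and tumour 1 lies 0.91 to 0.98 above the mean for S100a14, S100a16, S100a6 and S100a10 but below it for S100a13, S100a4 and S100a9.

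The segment from S100a1 to S100a9 spans 185 kb and holds 11 members, of which 8 were tested. Within 1000 kb on either side of it, 27 other genes were tested, of which 16 (59.3%) were highest in tumour 1, beside the 31.4% over all genes. Around S100a11 and S100a10 the count was 7 of 11 (63.6%). Of these other genes 4 of 27 and 7 of 11 had a range over 2-fold, and their median SD of log2 CPM was 0.32 and 0.47. A high level in tumour 1 was therefore shared by many genes around the cluster that are not S100 genes, mostly with a smaller range around its main segment. Neighbouring genes are not independent, and DNA copy number was not measured here.

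S100a8 and S100a9, the subunits of calprotectin, a protein complex that neutrophils carry in quantity, were low. S100a8 (90668978 to 90670035) had 10.9, 10.8, 9.38 and 3.81 CPM, from 99, 93, 76 and 32 counts. On the log2 CPM scale tumour 4 stood apart below the other 3 by Dixon's ratio, a call made for 1 of 23 members and for 5.86% of all genes. The call was lost when counts were scaled by total counts alone. S100a9 (90692632 to 90695721, minus strand) had 9.46, 13.7, 13.9 and 5.47 CPM and was also lowest in tumour 4. Without tumour 4, S100a8 no longer varied beyond counting noise (adjusted p = 0.615).

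Per kilobase of the longest transcript, S100a8 minus S100a9 was 0.30, -0.25, -0.47 and -0.42 on the log2 scale (mean -0.21 ± 0.35, SD, n = 4). S100a8 was above S100a9 in tumour 1 and below it in the other 3 tumours, and the mean difference was smaller than its spread (p = 0.375, exact sign-flip permutation, two-sided). With the union of exons as the length the mean was -0.72, and S100a8 was below S100a9 in tumour 1 as well. The side of tumour 1 and the size of the mean difference thus depend on the length. Neutrophil markers did not have 1 order of tumours. Their summed CPM was 156, 543, 401 and 254, of which Hdc, also a mast cell and basophil gene, gave 134, 509, 337 and 225. Of 13 neutrophil genes 8 had a mean of at least 1 CPM, Camp, Elane and Mpo were at 0 in every tumour, and Ly6g had at most 2 counts. Cxcr2, a chemokine receptor of neutrophils, had 3.08, 15.8, 29.1 and 9.99 CPM. The part of neutrophil number in S100a8 and S100a9 was not tested.

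S100a4, also called metastasin or fibroblast-specific protein, a regulator of non-muscle myosin, was lowest in tumour 1, unlike any other S100 member tested. Like S100a9, it was highest in tumour 3. Its values were 13.1, 17.1, 27.5 and 14.7 CPM (18.1 ± 6.48, SD, n = 4). Without tumour 3 it no longer varied beyond counting noise (adjusted p = 0.133). Tumour 3 also had the highest sums of pan-leukocyte markers (269 CPM, against 114 to 156), with 5 of 5 genes highest there, and of monocyte and macrophage markers (488, against 210 to 267), with 8 of 9. Fibroblast markers summed to 704, 506, 697 and 449 CPM and were split. Dcn (37.3, 57.4, 138 and 65.2 CPM) and Pdgfra (8.47, 14.3, 35.0 and 15.5 CPM) were highest in tumour 3 and lowest in tumour 1, as S100a4 was, whereas Col1a1 was highest in tumour 1 (125, 66.9, 49.4 and 32.2 CPM). Myh9, the heavy chain of the myosin that S100a4 binds, had 688, 548, 368 and 437 CPM and so was lowest where S100a4 was highest. The part of leukocytes or fibroblasts in the S100a4 level was not tested.

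S100g, which encodes calbindin-D9k, the vitamin D-responsive calcium carrier of the intestine, lies on chromosome X at 162961992 to 162964599 (minus strand) and had 81.9, 55.2, 133 and 138 CPM (102 ± 40.2, SD, n = 4). Tumours 3 and 4 were both above tumours 1 and 2, with a range of 2.50-fold. Gut-like identity markers summed to 1496, 1664, 815 and 952 CPM, of which Gkn2 gave 851, 1197, 681 and 553. The list was not of 1 order, since Lgals4 had 14.5, 22.0, 21.3 and 30.2 CPM and Tff1 had 29.0, 5.23, 1.85 and 19.9 CPM, and Cdx2 was at 0. S100pbp, on chromosome 4, had 75.3, 59.0, 57.6 and 65.8 CPM.

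The other S100 members lay at or near the floor. S100a2, S100a3, S100a5 and S100z had at most 3 counts in every tumour, which does not show that they are absent. S100b, the S100 protein of glia, had 0.357 to 1.36 CPM from 3 to 11 counts, highest in tumour 3. Glial markers summed to 52.2 to 72.1 CPM, and the Schwann cell regulator Sox10 was at 0.

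Among the annexins, Anxa2, Anxa4, Anxa1, Anxa5 and Anxa3 had the highest CPM. Anxa2 (chromosome 9, 69453620 to 69491795), which with S100a10 gathers plasminogen activators at the cell surface, had 1160, 1080, 815 and 851 CPM. Anxa4 (chromosome 6, 86736840 to 86793584), an annexin of epithelial membranes, had 710, 1037, 923 and 936 CPM and was lowest in tumour 1. Anxa5 (chromosome 3, 36448923 to 36475894), whose binding to phosphatidylserine is used to stain dying cells, had 814, 434, 423 and 564 CPM. Its order of tumours was that of S100a6 and S100a14, at a smaller range of 1.92-fold. Anxa3 (chromosome 5, 96793339 to 96845966) had 444, 430, 521 and 538 CPM, a range of 1.25-fold.

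Anxa1 (chromosome 19, 20373428 to 20390944), the glucocorticoid-induced annexin that signals through formyl peptide receptors, had 576, 514, 914 and 543 CPM. Tumour 3 was 1.78 times tumour 2 and stood above all 3 others. Its receptors were also highest in tumour 3, Fpr1 at 2.31, 1.63, 14.1 and 4.76 CPM and Fpr2 at 1.76, 2.67, 7.65 and 2.74 CPM. Both receptors are leukocyte genes, and leukocyte markers were highest in that tumour. The part of leukocytes in the Anxa1 level was not tested.

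Anxa6 (chromosome 11, 54979108 to 55033445), which carries a doubled annexin core, had the lowest spread of the members tested. Its values were 234, 256, 229 and 249 CPM (242 ± 12.5, SD, n = 4), with an SD of log2 CPM of 0.07 and a range of 1.11-fold, although the counts still varied beyond Poisson noise (adjusted p = 0.00144). Anxa7, or synexin (chromosome 14, 20455260 to 20480133), had 133, 118, 112 and 142 CPM. Anxa11 (chromosome 14, 25842156 to 25886804), which binds S100a6 and travels with RNA granules, had 32.6, 25.2, 18.8 and 32.6 CPM. Anxa11 overlaps the antisense gene Anxa11os by 113 exon bases, Anxa2 overlaps Gm16144 by 98 and Anxa4 overlaps Gm44036 by 75. These overlaps are with genes on the opposite strand. The strand setting of the counting is not given in the sources used here, so reads on such bases cannot be assigned. Anxa3 overlaps Gm42603 by 112 exon bases on the same strand, where no strand setting could assign them.

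Below 10 CPM, Anxa10 differed most between tumours. This annexin of the stomach lining had 0.880, 3.83, 0.494 and 9.75 CPM, from 8, 33, 4 and 82 counts, a range of 19.8-fold with tumour 4 highest and an SD of log2 CPM of 1.90. The sum of the gut-like identity markers was set mostly by Gkn2 and was highest in tumour 2. Among these markers Lgals4 was highest in tumour 4 as Anxa10 was, but lowest in tumour 1. Hnf4a (152, 130, 22.3 and 123 CPM), Gkn1, Tff1, Vil1 and Ctse were lowest in tumour 3, as Anxa10 was. Of the 7 markers tested, 4 (Hnf4a, Gkn1, Tff1 and Ctse) were highest in tumour 1, where Anxa10 had 0.880 CPM. Gkn2 was lowest in tumour 4, where Anxa10 was highest. Anxa8 had 2.79 to 8.80 CPM with tumour 1 highest and tumour 2 lowest. Anxa9, which overlaps Mindy1 by 71 exon bases on the opposite strand, had 4.18 to 7.37 CPM and passed the noise test narrowly (adjusted p = 0.0418). Anxa13, an annexin of intestine and kidney, had 8, 7, 0 and 0 counts.

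Levels of different genes can be ordered only per kilobase, and the order depended on the length taken. Per kilobase of the longest protein-coding transcript, the S100 order began with S100a6 at 861 ± 468 CPM per kb (SD, n = 4), S100a11 at 758 ± 137, S100a14 at 413 ± 230, S100g at 213 ± 83.8 and S100a10 at 204 ± 105. S100a6 was above S100a11 in 2 of 4 tumours, and S100g was above S100a10 in 2 of 4, so neither pair of neighbours differed beyond its spread (exact sign-flip permutation, p = 0.875 and p = 1). Per kilobase of the union of exons, S100a11 came before S100a6 (758 ± 137 and 460 ± 250 CPM per kb), followed by S100a14 at 253 ± 141. S100a1 lay at 156 ± 29.0 and 152 ± 28.3 CPM per kb by the 2 lengths, S100a16 at 79.5 and 55.4, S100a13 at 61.6 by both and S100a4 at 36.4 and 31.0. S100a9, S100a8 and S100pbp came last by both lengths, at 20.5 CPM per kb or below.

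The annexin order was less firm. Per kilobase of the longest transcript, Anxa2 came before the others at 675 ± 117 CPM per kb (SD, n = 4), followed by Anxa4 (444 ± 67.7), Anxa1 (380 ± 111), Anxa5 (323 ± 105) and Anxa3 (303 ± 33.8). With the union of exons Anxa5 came before the others at 314 ± 102 CPM per kb, and Anxa2 fell to 262 ± 45.4, Anxa1 to 219 ± 64.0, Anxa4 to 194 ± 29.6 and Anxa3 to 133 ± 14.8. Which of these 5 annexins had the highest transcript level is therefore not settled. By both lengths they stood above Anxa6 (97.2 and 82.6), Anxa7 (43.5 and 21.1) and Anxa11 (11.4 and 6.60 CPM per kb), in that order.

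Partners were set against each other within each tumour. S100a10 minus Anxa2 was -1.16, -2.50, -1.94 and -1.71 on the log2 scale per kilobase of the longest transcript (mean -1.83 ± 0.55, SD, n = 4). By this length Anxa2 transcripts were on the mean 3.55-fold above those of their partner. With the union of exons the mean was -1.28, so the size of the gap depends on the length. The gap was smallest in tumour 1, where S100a10 was highest. S100a11 minus Anxa1 was 1.46, 1.01, 0.47 and 1.15 (mean 1.02 ± 0.41, SD, n = 4), smallest in tumour 3, where Anxa1 was highest. With the union of exons as the length the mean was 1.82, and with the pseudogenes added to S100a11 it was 1.56, so its size depends on both choices. S100a6 minus Anxa11 was 6.78, 5.68, 5.95 and 6.07, a 69.6-fold difference. Each of these 3 differences had the same sign in 4 of 4 tumours and the smallest p that 4 tumours allow in the exact permutation of signs (0.167 after adjustment over the 4 pairs), so none could pass 0.05.

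**Figure D4:**
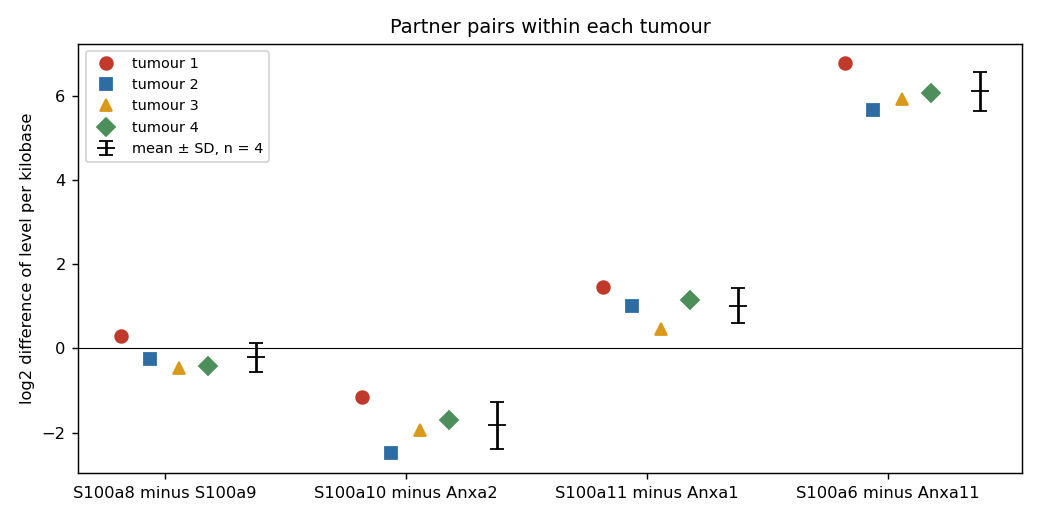
Log2 difference of level per kilobase of the longest transcript within each tumour for 4 partner pairs, with the mean ± SD of the 4 tumours at the right of each. S100a8 and S100a9 straddle 0, S100a10 lies below Anxa2 in every tumour, and S100a11 and S100a6 lie above Anxa1 and Anxa11 in every tumour.

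Receptors and further partners of the families were taken from a list of 22 genes, of which 21 were tested and 20 varied beyond counting noise, with a range over 2-fold for 7, beside 76.7% and 28.1% of all genes. Their median SD of log2 CPM was 0.36, beside 0.29 over all genes. Tumour 3 was highest for 10 of the 21, beside 30.2% of all genes, and tumour 1 for 6, beside 31.4%. Among receptors of released S100 proteins, Ager, in the lung a marker of alveolar type 1 cells, had 1117, 697, 1224 and 1004 CPM. Other alveolar type 1 markers summed to 1189, 692, 1291 and 1471 CPM, likewise lowest in tumour 2. Tlr4 had 56.0, 98.3, 142 and 85.9 CPM, lowest in tumour 1 and highest in tumour 3. Cd36, a scavenger and fatty acid receptor, had 1039 CPM in tumour 1 and 1801 to 1891 in the others. Bsg, or basigin, had 847, 736, 752 and 672 CPM.

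Partners inside the cell differed among themselves. Cacybp, the calcyclin-binding protein, had 87.8, 76.2, 82.3 and 84.4 CPM, a narrow range beside that of S100a6. Ahnak, the giant scaffold that binds the S100a10 and Anxa2 complex, had 488, 393, 911 and 615 CPM, highest in tumour 3, where Anxa2 was lowest. Dysf, dysferlin of the membrane repair machinery, had 12.9, 22.5, 53.4 and 19.9 CPM. Of the plasminogen system, Plau had 62.9, 31.8, 48.5 and 21.8 CPM, Plat had 67.3, 58.7, 39.2 and 45.6 CPM, and Plg itself had 1, 26, 0 and 7 counts. The partners of Anxa7 and Anxa11, Pdcd6 and Sri, lay between 85.6 and 104 CPM and between 116 and 166 CPM.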

How the data were processed

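Polyadenylated RNA of 4 tumours of 1 group was measured, with 1 library per tumour. Per the methods and labels, single-end reads were trimmed (Cutadapt), mapped to mm10 (HISAT2) and counted per gene, with featureCounts 1.4.4 among the named tools, and the authors deposited the raw counts. The strand setting and the annotation release are not given in the sources used here. The authors also deposited log2 values made by TMM and voom, used here only as an alternative. The combined and single count tables held equal values (156068 of 156068). TMM factors came from edgeR 4.0.16 (R 4.3.3). CPM was the count over the effective size, and log2 CPM had 0.5 added to the count and 1 to the size. Genes with a mean of at least 1 CPM were tested by a chi-square test with 3 degrees of freedom and Benjamini-Hochberg adjustment at 0.05. Dixon's limit for 4 values was 0.829. Partner pairs were tested by exact sign-flip permutation, whose smallest p with 4 tumours is 0.125. The test was checked on simulated data. Positions and lengths are those of GENCODE M21 (GRCm38), in which 29 of 29 members and 96.4% of all IDs were found, and copies were found with BLAST 2.17.0. For Anxa13 the longest transcript of any kind was used. Every member was to be accounted for, with a value in every tumour from 10 CPM, and other genes were named only from the fixed lists or where they overlap or copy a member. The members and lists were chosen with earlier results of these data known. Alternatives were other size factors (DESeq2 1.42.0 and total counts), filters, pseudocounts, lengths and leaving out each tumour. A further element of the genotype is not reported here.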

Additional observations from a re-analysis of the deposited data

Results flagged for a closer look

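In 5 of the 63 values examined for a tumour apart from the other 3, the gap on the log2 scale passed Dixon's limit for 4 values, which chance alone passes in about 1 of 20. S100a8 was at 3.81 CPM in tumour 4, below the other tumours, and this call was lost when counts were scaled by total counts alone. Cd36 was at 1039 CPM in tumour 1, below the others, and Plaur, the urokinase receptor, was at 19.3 CPM in tumour 4, against 27.5 to 29.5 CPM. Of the marker sums, the epithelial list was at 5188 CPM in tumour 1, above the others, and the endothelial list was at 277 CPM in tumour 3, against 200 to 209 CPM. The values are printed on the linear scale, on which the ratio was not used.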

How the results depend on the processing

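No paired comparison of groups was possible because the design has 1 group. Of 69 values recomputed for the main comparisons, 61 kept their direction, their side of the threshold where one applied and, for counts and values with no test, about their size. The number of members with 1 tumour apart was 1, and it was 0 with total counts in place of TMM, 0 at a mean of at least 10 CPM and 4 with no filter. The median SD of log2 CPM over the members was 0.38 and became 0.55 with no filter, and leaving out a tumour gave 0.26 (without tumour 1) to 0.41 (without tumour 2). Members with a range over 2-fold were recomputed under alternatives added after seeing the data. They stayed at 10 with DESeq2 size factors or total counts. They fell to 5 without tumour 1, 8 without tumour 2, 9 without tumour 3 and 8 without tumour 4. Members highest in tumour 1 were 11, and 12 with DESeq2 size factors or total counts, alternatives also added after seeing the data. Leaving out a tumour left 20 to 21 of 23 members past the noise test. Of 203 recomputed calls of single members, 7 were lost: Anxa9 with no filter (adjusted p = 0.0583), at a threshold of 0.01, without tumour 2 (0.109) and without tumour 4 (0.505), S100a4 without tumour 3 (0.133), S100a8 without tumour 4 (0.615) and S100pbp without tumour 1 (0.112). The cause was not tested. With union exon lengths the mean pair differences were -0.72, -1.28, 1.82 and 6.01 on the log2 scale, and these means kept their signs. In tumour 1 the sign of S100a8 minus S100a9 changed with the length. By the longest transcript, S100a11 summed with its pseudogenes was on the mean 1.56 above Anxa1. Of 114 recomputed mean CPM values, 114 moved by less than 1 SD. Most of these left out a tumour, and leaving out 1 of 4 values cannot move a mean by 1 SD, apart from small changes of scaling. Those runs could therefore not fail this limit. The mean of S100a6 went from 629 to 468 CPM without tumour 1. Members below about 10 CPM rest on few counts, and depth limits what can be said of them. The order of levels per kilobase with the union of exons was also added after seeing the data.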
